A study of Homo sapiens with 26 samples.

Results

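The non-fusion guides are 19 guide RNAs against PAX3 and FOXO1 that accompany every pool of a CRISPR knockout screen in RH4, a cell line established from alveolar rhabdomyosarcoma and labelled PAX3-FOXO1+. They were taken by the gene column of the count files, as the 10 guides named PAX3_non-fusion and the 9 guides named FOXO1_non-fusion in every pool. They make up 190 of the 10626 guide measurements in the 10 pools, which are CF1 to CF3, TF1 to TF3, KP1 and KP2, and DR1 and DR2. In each pool, infected and drug-selected cells were fixed at day 7 after infection, stained for myosin heavy chain (MYH) and separated into a MYH high and a MYH low arm, and the guide cassette was amplified from genomic DNA and counted. Both arms therefore share the cell line, the fusion genotype and the drug selection, and differ by the sort gate. Uninfected or unsorted cells were not analysed here. There was 1 sample per arm and pool, so no difference within a pool has a replicate check. The 10 pools are separate libraries that carry the same shared guides, and the SD over pools is the spread given below. The measure was the log2 ratio between the arms, MYH high over MYH low, of CPM (each sample's counts scaled to a total of 1e6), set to 0 at the median of all guides of the pool. The members were chosen by name, but selected on knowledge of these very ratios, which lay near 0 over the pools, and sgRNA3191, which carries both FOXO1 names, was left out. The ratios are therefore a description, and no test is given.

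As background, PAX3 is a paired-box and homeodomain transcription factor of muscle progenitors and neural crest, and FOXO1 is a forkhead transcription factor that insulin and growth factor signalling through AKT keeps out of the nucleus. The chromosomal translocation of alveolar rhabdomyosarcoma joins the DNA-binding part of PAX3 to the transactivation part of FOXO1, and the fusion protein holds the cells in an undifferentiated, dividing state. A cell with the translocation keeps parts of both genes outside the fusion. MYH is a protein of differentiated muscle, so a guide that is more abundant in MYH high cells marks cells with more of this protein. The labels do not say which exons a set covers. Guide sequences and cut positions were not analysed here, so the guides are identified by name and no sequence or coordinate is printed.

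The members were deeply covered, except in TF1. Reads per pool and arm ran from 5548348 in DR1 MYH low to 166032777 in CF2 MYH low. The usable PAX3_non-fusion measurements had 3338 to 232901 reads per arm, and the FOXO1_non-fusion measurements 2332 to 292852. The standard error from counting alone had a median of 0.0075 on the log2 scale for PAX3_non-fusion. For FOXO1_non-fusion it was 0.0085, and the highest value was 0.033. Reads are not independent molecules, so these errors cover counting only. Differences among guides of a set were far wider than that: the SD over guides within a pool had a median of 0.15 for PAX3_non-fusion and 0.20 for FOXO1_non-fusion.

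In pool TF1 the FOXO1_non-fusion guides were nearly missing. Of the 9 guides, 8 had 0 to 6 reads in either arm and 4 of these had 0 reads in both arms, which allows up to 0.026 CPM in MYH high and 0.024 CPM in MYH low. These 8 were the only guides of TF1 with fewer than 10 reads over both arms, the minimum set for a ratio. The remaining guide, sgRNA3189, had 27480 reads in TF1 MYH high and a log2 ratio of -0.071. All 10 PAX3_non-fusion guides were usable in all pools, and FOXO1_non-fusion has a set value in 9 pools. In all, 182 of the 190 measurements were usable.

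Guides against PAX3 outside the fusion lay slightly above the centre of their pool in most sorts. The median log2 ratio over the PAX3_non-fusion guides was 0.22 in TF1, 0.14 in TF2 and 0.11 in TF3. It was 0.053 in KP1, 0.019 in KP2, -0.024 in DR1 and 0.0063 in DR2. In the cofactor pools it was 0.13 in CF1, 0.18 in CF2 and 1.04 in CF3. Pool CF3 stood apart from the other 9, which lay between -0.024 and 0.22, and DR1 was the 1 pool below 0. The mean was 0.19 ± 0.31 (SD, n = 10 pools), and without CF3 it was 0.09 ± 0.08 (SD, n = 9 pools), which is 1.07-fold.

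Guides against FOXO1 outside the fusion lay on both sides of the centre. The median log2 ratio over the FOXO1_non-fusion guides was 0.19 in TF2, -0.016 in TF3, -0.011 in KP1 and 0.15 in KP2. It was -0.043 in DR1, -0.059 in DR2, 0.083 in CF1, 0.18 in CF2 and 0.52 in CF3. CF3 was again the highest, and 4 of the 9 pools were below 0. The mean was 0.11 ± 0.18 (SD, n = 9 pools), and 0.059 ± 0.10 (SD, n = 8 pools) without CF3. Without CF3 the spread over pools was thus wider than the mean for FOXO1_non-fusion and close to it for PAX3_non-fusion.

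The 10 guides named neg, taken here as negative controls, were measured in the same sorts. Their median log2 ratio lay between -0.11 (TF2) and 0.067 (CF1) in 9 pools and was 1.30 in CF3. Subtracting it within each pool removes the choice of centre. PAX3_non-fusion minus neg was 0.21 in TF1, 0.25 in TF2, 0.13 in TF3, 0.045 in KP1, 0.021 in KP2, -0.071 in DR1, 0.11 in DR2, 0.064 in CF1, 0.27 in CF2 and -0.25 in CF3. PAX3_non-fusion was therefore above neg in 8 of 10 pools, and in CF3 the order turned. The mean difference was 0.08 ± 0.16 (SD, n = 10 pools) and 0.11 ± 0.11 (SD, n = 9 pools) without CF3. A lift of this size was not particular to PAX3_non-fusion. The guides named PCNA were also above neg in 8 of 10 pools, by 0.13 ± 0.15 (SD, n = 10 pools). Those named MYOD1 were above neg in 5 of 10 pools, with a mean difference of -0.11 ± 0.28 (SD, n = 10 pools).

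For FOXO1_non-fusion the mean difference to neg was close to 0, and its sign turned without CF3 and under some other settings given below. The difference was 0.30 in TF2, 0.0015 in TF3, -0.019 in KP1, 0.15 in KP2, -0.090 in DR1, 0.047 in DR2, 0.016 in CF1, 0.27 in CF2 and -0.78 in CF3. It was above 0 in 6 of 9 pools, and TF2 and CF2 held the highest values for both sets. The mean was -0.011 ± 0.32 (SD, n = 9 pools) with CF3 and 0.08 ± 0.14 (SD, n = 8 pools) without it. Both means lay within 1 SD of 0.

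A log2 size of 0.3, or 1.23-fold, gives a count of guides that stood apart in single sorts. Over the 10 pools, 23 of 100 PAX3_non-fusion, 16 of 82 FOXO1_non-fusion and 18 of 100 neg measurements lay above 0.3. Of all guide measurements, 10.1% did. Below -0.3 lay 0 PAX3_non-fusion, 1 FOXO1_non-fusion and 4 neg measurements, against 6.25% of all guide measurements, or 5.01% without CF3. In CF3 alone, 10 of 10 PAX3_non-fusion and 7 of 9 FOXO1_non-fusion guides were above 0.3, beside 18.7% of all CF3 guides, and so were 10 of 10 neg guides. Below -0.3 lay 0 members in CF3, beside 16.6% of its guides. Without CF3, 13 of 90 PAX3_non-fusion, 9 of 73 FOXO1_non-fusion and 8 of 90 neg measurements were above 0.3, where 9.02% of all guides were. The 1 member measurement below -0.3 was sgRNA3189 in TF3, at -0.36.

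Single PAX3_non-fusion guides differed in how steadily they stayed on one side. Guide sgRNA3223 had log2 ratios from -0.014 (KP1) through a median of 0.19 to 1.36 (CF3), and was above 0 in 9 of 10 pools. Guide sgRNA3224 ran from -0.025 (DR1) through 0.17 to 0.82 (CF3), also above 0 in 9 pools. Guide sgRNA3217 ran from -0.024 (DR1) through 0.16 to 0.71 (CF3), again above 0 in 9 pools. Guide sgRNA3219, from -0.13 (TF2) through 0.078 to 0.84 (CF3), was above 0 in 9 pools too. Without CF3 the means of sgRNA3223, sgRNA3224 and sgRNA3217 were 0.16 ± 0.11, 0.17 ± 0.12 and 0.17 ± 0.17 (SD, n = 9 pools). They were the 3 of the 10 guides whose mean exceeded its SD, for sgRNA3217 only just.

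Guide sgRNA3218 had the widest spread of the PAX3_non-fusion set. Its log2 ratio was 1.07 in TF3 and 1.02 in CF3, 0.42 in CF2, 0.30 in DR2, 0.27 in TF1 and 0.15 in TF2. It was 0.060 in DR1, 0.050 in KP1, -0.020 in CF1 and -0.083 in KP2. TF3 was thus the pool where it was highest, and the value there was the 1 member measurement above 1 outside CF3. In TF3 its level was 1667 CPM in MYH high and 840 CPM in MYH low, and the SD over the PAX3_non-fusion guides of TF3, 0.37, was the largest of any pool.

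Guide sgRNA3216 was the PAX3_non-fusion guide most often below the centre. Its log2 ratio was below 0 in 6 of 10 pools, from -0.16 (TF2) through a median of -0.050 to 1.17 (CF3). Without CF3 its mean was -0.053 ± 0.09 (SD, n = 9 pools), the 1 mean below 0 among the 10 guides. The other PAX3_non-fusion guides had means without CF3 of 0.046 (sgRNA3221), 0.068 (sgRNA3219), 0.12 (sgRNA3220), 0.13 (sgRNA3225) and 0.16 (sgRNA3222), with SDs of 0.11 to 0.22. Their highest values outside CF3 were 0.28 for sgRNA3221 in CF1, 0.24 for sgRNA3219 in DR1, 0.48 for sgRNA3220 in TF2, 0.35 for sgRNA3225 in DR2 and 0.60 for sgRNA3222 in TF3. Each of these highest values came from a different pool.

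Of the FOXO1_non-fusion guides, sgRNA3193 was above 0 in 9 of 9 pools. Its log2 ratio ran from 0.000885 (KP1) through a median of 0.27 to 0.53 (CF3), with a mean of 0.21 ± 0.13 (SD, n = 8 pools) without CF3. Guide sgRNA3195 was above 0 in 8 of 9 pools, from -0.094 (DR2) through 0.12 to 0.55 (CF3), and its mean without CF3 was 0.13 ± 0.14 (SD, n = 8 pools). These were the steadiest of the set on the positive side. Guide sgRNA3192 was below 0 in 6 of 9 pools, from -0.18 (TF3) through -0.032 to 0.52 (CF3). Its mean without CF3 was -0.042 ± 0.10 (SD, n = 8 pools), the 1 mean below 0 in the set.

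Other FOXO1_non-fusion guides changed side between pools. Guide sgRNA3190 had a log2 ratio of 0.70 in TF2, its highest, and -0.23 in DR1, its lowest. Guide sgRNA3189 had 0.45 in TF2 and -0.36 in TF3, and sgRNA3194 had 0.54 in CF2 and -0.19 in DR2. For these 3 guides CF3 was not the highest pool. Guides sgRNA3186, sgRNA3187 and sgRNA3188 had means without CF3 of 0.016, 0.072 and 0.052, with SDs of 0.14, 0.18 and 0.15 (n = 8 pools). Only for sgRNA3193 did the mean without CF3 exceed its SD, among these 9 guides.

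In CF3 all 19 members were above 0, and for 15 of them CF3 was the highest of their pools. Against the neg median of that pool the picture turned. Of the PAX3_non-fusion guides, sgRNA3223 at 1.36 was the 1 above the neg median, and of the FOXO1_non-fusion guides, sgRNA3186 at 1.2998 was barely above 1.2957. The lowest members in CF3 were sgRNA3189 at 0.16 and sgRNA3190 at 0.23. Depth was uneven in this pool, with 21819567 reads in MYH high and 98457308 in MYH low; its part in the ratios was not tested.

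With neg guide sgRNA3239 counted, the arm of CF3 whose share of reads departed from the other pools differed between sets. The pools hold 817 (DR2) to 1182 (CF2) guides, which also bears on a share. The 10 PAX3_non-fusion guides together took 1.84% of CF3 MYH high reads (exact binomial 95% confidence interval 1.83 to 1.84%) and 1.04% of MYH low reads (1.04 to 1.04%). Such intervals treat reads as independent and cover counting only. In the other 9 pools the PAX3_non-fusion guides took 0.868 to 1.26% of MYH high and 0.834 to 1.28% of MYH low. The MYH low share of CF3 was therefore inside that range and its MYH high share above it. The 9 FOXO1_non-fusion guides took 2.06% of CF3 MYH high (2.05 to 2.07%) and 1.54% of MYH low (1.54 to 1.54%), where the other pools reached at most 0.973 and 0.980%. For FOXO1_non-fusion both arms of CF3 were thus above the other pools. The neg guides took 1.63% of CF3 MYH high (1.62 to 1.63%), inside the 0.833 to 1.91% of the other pools. Only DR1 (1.91%) and CF1 (1.70%) had a higher neg share of MYH high. There sgRNA3239 alone had 131002 of 599461 (DR1) and 1065604 of 2112832 (CF1) neg reads. Shares without this guide were not computed, so the place of CF3 MYH high inside the range holds only with it counted. The MYH low arm differed more plainly. The neg guides took 0.733% of CF3 MYH low (0.731 to 0.734%), below the 0.919 to 4.10% of the other pools. The 4.10% was DR1, where sgRNA3239 alone had 142694 of the 227406 neg reads of MYH low.

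Abundance within the PAX3_non-fusion set kept much of its order across pools. Guide sgRNA3220 was the least abundant of the set in 9 of 10 MYH low samples and in 9 of 10 MYH high samples, with 360 to 688 CPM in MYH low. Guide sgRNA3224 was the most abundant in 5 of 10 samples of each arm, at 702 to 2094 CPM in MYH low. The set median in MYH low lay between 754 CPM (CF3) and 1270 CPM (DR1). FOXO1_non-fusion varied more between pools, with a set median in MYH low of 431 CPM in TF3 and 1560 CPM in CF3. Its guide sgRNA3189 ranged from 120 CPM (TF2) to 1734 CPM (CF3) in MYH low.

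The distance from the guides within the fusion was large in all pools. The set PAX3_Fusion_DBD, named for the DNA-binding domain, had a mean log2 ratio of 3.27 ± 0.61 above neg without CF3 (SD, n = 9 pools), and FOXO1_fusion without sgRNA3191 had 2.77 ± 0.64. Of 200 measurements of the 20 fusion guides, 197 were above the highest member of their pool. The 3 exceptions were sgRNA3210 of PAX3_Fusion_DBD in TF3 and DR1, and sgRNA3177 of FOXO1_fusion in TF3. Guide sgRNA3210 had 0.33 in TF3 and -0.40 in DR1. In TF3 the highest member was sgRNA3218, whose 1.07 set the limit there. Both sets were measured in the same contrast, and no test of the difference is given.

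A guide that the count files name in both ways, sgRNA3191, was left out of the members. It is named FOXO1_non-fusion in 4 pools, where its log2 ratio was 2.65 in TF2, 2.48 in TF3, 3.02 in DR1 and 2.92 in DR2. In the 6 pools that name it FOXO1_fusion it ran from 2.62 (KP1) through a median of 3.32 to 4.23 (CF2). All of its values were above 2, while the highest of the members was 1.36. Kept in the 4 pools that name it non-fusion, it moved the FOXO1_non-fusion mean from 0.11 to 0.13, since the set value is a median.

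The authors' deposited table of each pool gives a model score, beta, per target, on a scale whose logarithm base is not stated. For PAX3_non-fusion beta was above 0 in 10 of 10 pools of the authors' deposited table, from 0.0045 in DR1 through a median of 0.095 to 0.706 in CF3. For neg it ran from -0.170 in TF2 to 0.916 in CF3, and for FOXO1_non-fusion from -0.249 in TF3 to 0.369 in CF3, in the authors' deposited table. In the column fdr of the authors' deposited table, PAX3_non-fusion is listed at 0 in CF3, as is neg, and its lowest rate elsewhere is 0.630. FOXO1_non-fusion has a lowest rate of 0.176 in that table, in CF3. CF3 is thus the 1 pool in which either member set passed 0.05 there, and the neg guides passed with it. In the Wald column of the authors' deposited table neither set passed, with lowest rates of 0.0934 for PAX3_non-fusion and 0.144 for FOXO1_non-fusion.

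The guide numbers in the authors' deposited table differ from the count files in several pools. FOXO1_non-fusion rests on 1 guide in TF1, TF2 and TF3 of the authors' deposited table, whereas the count files of TF2 and TF3 hold 9 usable guides without sgRNA3191. Its beta was -0.048, 0.319 and -0.249 in those pools. The natural-log ratios of sgRNA3189, computed from the counts, were -0.049, 0.315 and -0.247. In TF2 and TF3 it was the nearest to beta of the 9 usable FOXO1_non-fusion guides, and in TF1 it is the 1 usable guide. The table does not name the guide. Over all 9 guides the set median log2 ratio was 0.19 in TF2 and -0.016 in TF3. On the natural-log scale these medians were 0.13 and -0.011. On either scale they were closer to 0 than both betas, whose base is not stated. PAX3_non-fusion has 11 guides in KP1 and KP2 of the authors' deposited table and 10 in the count files.

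A separate small test library names exons in its guides, and PAX3 exon 8 and FOXO1 exon 1 lie outside the joined parts of the fusion as it is usually described. Its PAX3 exon 8 guides had log2 ratios of -0.13, 0.04 and 0.025 and its FOXO1 exon 1 guides -0.27, -0.26 and -0.22, centred on 50 negative controls that ran from -0.41 to 0.27. All 6 lay within the range of those controls. The controls had an SD of 0.15 and a lower quartile of -0.10. All FOXO1 exon 1 guides, and the PAX3 exon 8 guide at -0.13, were below that quartile. Whether any of these guides is a guide of the pools cannot be told from the names.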

How the data were processed

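Each deposited count file holds the authors' unnormalised read counts for the guides of 1 sample. The submitters' processing notes name FastQC and MAGeCK; their versions and settings are not given there. Per the file headers, the authors' deposited tables hold a beta score and z score and false discovery rates (p-value scale) per target from a maximum likelihood model; 2 unnamed columns were not used. Counts were scaled to CPM, and log2 ratios of MYH high over MYH low were taken with a pseudocount of 1 CPM for guides with at least 10 reads over both arms, centred on the median of all guides. A set value is the median over at least 3 usable guides. All member guides are named, with neg, sgRNA3191, the fusion sets, PCNA and MYOD1 beside them. The members and lists were chosen with earlier results of these data known. Scripts were tested on simulated data. Python 3.11.15, numpy 2.4.6 and pandas 2.3.3 were used; intervals came from scipy 1.17.1. Alternatives were other centrings, pseudocounts, minimums, summaries and pools left out.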

Additional observations from a re-analysis of the deposited data

Results flagged for a closer look

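Of 25 sets of pool values screened for an outlying pool, 13 had one, and all 13 lay in CF3. The cut-off is one that about 1 in 20 unrelated sets would pass by chance. These sets overlap and share the same CF3 samples, so the 13 are not separate findings and that rate does not apply to their count. The set value of PAX3_non-fusion was 1.04 there, that of FOXO1_non-fusion 0.52 and that of neg 1.30, all far above their other pools, and FOXO1_non-fusion minus neg at -0.78 was far below them. The single guides screened were the members and neg guide sgRNA3239. The other neg guides were not screened, and in CF3 the neg guides ran from 0.81 to 2.22. Among the single guides screened, 7 of PAX3_non-fusion stood apart in CF3. They were sgRNA3216 at 1.17, sgRNA3219 at 0.84, sgRNA3220 at 1.19, sgRNA3221 at 1.19, sgRNA3223 at 1.36, sgRNA3224 at 0.82 and sgRNA3225 at 0.81. Of FOXO1_non-fusion, 2 did, sgRNA3186 at 1.30 and sgRNA3192 at 0.52. PAX3_non-fusion minus neg had no outlying pool.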

How the results depend on the processing

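No alternative moved a mean over pools by more than 1 SD over pools, a wide limit because CF3 enters that SD. For PAX3_non-fusion the SD was 0.31 with CF3 and 0.08 without it. Leaving out a single pool cannot shift a mean by that much, so this limit does not check the pools left out. Leaving out each pool in turn gave 0.09 to 0.21 for PAX3_non-fusion, 0.059 to 0.13 for FOXO1_non-fusion, 0.056 to 0.11 for PAX3_non-fusion minus neg and -0.050 to 0.08 for FOXO1_non-fusion minus neg. In all 4, leaving out CF3 gave the end of the range that differs most from the mean over all pools. The sign of FOXO1_non-fusion minus neg, -0.011 over 9 pools, turned without CF3 (0.08), with no count minimum (0.0026, which adds TF1), with sgRNA3191 kept (0.0086) and with means over guides without neg guide sgRNA3239 (0.016). With no centring, PAX3_non-fusion had 0.089 and FOXO1_non-fusion 0.015, as the median of all guides was below 0 in each pool before centring. The ratio of summed reads gave 0.20 and 0.12. The alternatives on TF1, sgRNA3239, summed reads and centring on neg without CF3 were chosen after seeing the data. The median counting errors were 0.0075 and 0.0085, which treat reads as independent. What the uneven depth of CF3 and of DR1 adds was not tested. The arms are paired by pool, as each ratio is taken within a pool; the labels carry no replicate numbers for a further block.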

Other observations

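The neg guide sgRNA3239 varied far more between arms than any member. Its log2 ratio ran from -2.51 in DR1 to 4.43 in CF1, with 25718 CPM in DR1 MYH low and 8554 CPM in CF1 MYH high. Without it and without CF3, the neg guides ran from -0.41 to 0.36, and the SD over guides within a pool had a median of 0.11. On the same pools that median was 0.14 for PAX3_non-fusion and 0.19 for FOXO1_non-fusion. In KP2 the authors' deposited table rests on 7 neg guides, while the count files hold 10.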
